A study of Mus musculus with 19 samples.

Results

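Levels of 10 genes known from brain border macrophages were described in RNAseq data of cells sorted from the mouse hippocampus, out of 60567 genes listed. The 10 genes were *Mrc1*, *Cd163*, *Lyve1*, *Clec10a*, *Ms4a7*, *Ms4a4a*, *Pf4*, *F13a1*, *Lyz2* and *Cbr2*, and each had a single entry, found by its symbol. They were chosen by name as markers, with earlier results of these data known. Those results included the levels of *Ms4a4a* and *Clec10a* in the astrocyte groups and the direction of perivascular macrophage genes between sorted astrocytes and the other cells, so these are given below as a description with no test.

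Border macrophages are the resident macrophages of the brain surfaces. They sit in the perivascular space around penetrating vessels, in the leptomeninges and in the choroid plexus, where they take up debris and proteins from fluid. In the brain they are told apart from microglia, the macrophages of the parenchyma, by scavenger and lectin receptors such as MRC1 and CD163 and by genes of the *Ms4a* family. Several of the 10 genes are shared with other cells: *Pf4* with platelets, *F13a1* with monocytes, *Lyve1* with lymphatic endothelium and *Lyz2* with most myeloid cells.

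RNAseq had been performed on 19 samples of hippocampal cells from 9 month-old male mice. APP-GFP and APP-SOCS3 mice were transgenic mice of an Alzheimer's disease model, which carry a chimeric mouse/human *App* with the Swedish mutations on a C57BL/6J background, and WT-GFP mice were littermates without transgenes. All mice had received AAV2/9 vectors in the CA1 region, with the astrocyte promoter gfaABC1D driving GFP alone (WT-GFP, APP-GFP) or SOCS3, an inhibitor of the JAK-STAT pathway, together with GFP (APP-SOCS3), at the same total viral load. There were 7 samples of GFP+ astrocytes for WT-GFP, 4 for APP-GFP and 5 for APP-SOCS3, while GFP- cells came from 3 samples of WT-GFP mice only. The sort was gated on scatter, singlets and GFP, without a stain for macrophages, and GFP- cells are a mixture of microglia, neurons, oligodendrocyte precursor cells, uninfected astrocytes and other cells. Reads counted on genes ranged from 19331876 to 32621917 per sample. A normalized level of 1 corresponded to about 1 read. Libraries were made from small amounts of RNA with amplified cDNA, so floors of 3 reads cover counting error only.

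Among the sorted astrocytes, the number of genes above 0 was lowest in WT-GFP replicate 3 (15575) and APP-GFP replicate 2 (16471), against 18107 to 26757 in the other 14 samples. Each sample was treated as a replicate. The study processed both hippocampi of a mouse separately, and whether some samples share a mouse is not stated, so *p*-values may be too small. In bulk samples of this kind, fewer cells of a type and less RNA per cell cannot be told apart.

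The members lie apart in the genome (mm10, all protein-coding), apart from the neighbours *Ms4a7* (chr19:11321039-11336148) and *Ms4a4a* (chr19:11375488-11392915). The others are *Mrc1* (chr2:14229414-14332027), *Cd163* (chr6:124304651-124330527), *Lyve1* (chr7:110850603-110863059), *Clec10a* (chr11:70166623-70170836), *Cbr2* (chr11:120729485-120732021), *Pf4* (chr5:90772435-90773384), *F13a1* (chr13:36867178-37050244) and *Lyz2* (chr10:117277334-117282323).

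Promoter windows of 300 bases (250 before to 50 after the annotated start) were available in the RefSeq annotation of GRCm38.p6 for 8 of the 10 genes. They are shown for *Lyz2*, *Ms4a4a*, *Pf4* and *Cbr2*. All are printed 5′ to 3′ in the direction of transcription. Capitals mark GAGGAA, the core of the PU box bound by PU.1 (encoded by *Spi1*), and TGCTGA, a half-site of MAF factors, on either strand (TTCCTC and TCAGCA on the other). The windows are chr10:117282223-117282522 (minus strand) for *Lyz2*, chr19:11375238-11375537 (plus strand) for *Ms4a4a*, chr5:90772185-90772484 (plus strand) for *Pf4* and chr11:120731972-120732271 (minus strand) for *Cbr2*.
Lyz2: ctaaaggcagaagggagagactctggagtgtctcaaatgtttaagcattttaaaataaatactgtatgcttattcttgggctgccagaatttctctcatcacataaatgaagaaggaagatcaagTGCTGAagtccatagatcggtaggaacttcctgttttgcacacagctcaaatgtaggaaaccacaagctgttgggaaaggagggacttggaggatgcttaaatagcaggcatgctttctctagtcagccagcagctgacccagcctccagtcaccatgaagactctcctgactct
Ms4a4a: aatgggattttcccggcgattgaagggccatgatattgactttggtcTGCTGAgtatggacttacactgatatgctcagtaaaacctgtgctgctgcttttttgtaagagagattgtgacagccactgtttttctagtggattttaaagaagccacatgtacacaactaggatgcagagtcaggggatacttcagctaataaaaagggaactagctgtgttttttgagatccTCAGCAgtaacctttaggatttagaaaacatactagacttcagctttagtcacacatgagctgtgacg
Pf4: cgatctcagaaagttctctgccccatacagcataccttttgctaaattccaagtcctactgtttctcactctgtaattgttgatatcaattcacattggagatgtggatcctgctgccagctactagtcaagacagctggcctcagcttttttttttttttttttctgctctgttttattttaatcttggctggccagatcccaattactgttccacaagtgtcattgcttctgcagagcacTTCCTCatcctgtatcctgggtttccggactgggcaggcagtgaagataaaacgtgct
Cbr2: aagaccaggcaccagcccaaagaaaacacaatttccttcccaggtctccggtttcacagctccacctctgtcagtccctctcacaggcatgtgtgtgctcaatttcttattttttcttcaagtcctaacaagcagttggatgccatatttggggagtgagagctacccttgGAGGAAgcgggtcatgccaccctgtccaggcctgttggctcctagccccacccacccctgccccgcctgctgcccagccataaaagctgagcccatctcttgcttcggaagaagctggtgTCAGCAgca
The half-site lies 125 bases before the start in *Lyz2*, and 203 and 18 bases before it in *Ms4a4a*. In *Pf4* the PU box letters begin 8 bases before the start. *Cbr2* holds both sets of letters, the PU box 79 bases before and the half-site 41 bases after the start, without overlap. Over the 10 windows of the 8 genes, GAGGAA was found for 5 genes (*Cbr2*, *F13a1*, *Mrc1*, *Ms4a7*, *Pf4*) and TGCTGA for 3 (*Cbr2*, *Lyz2*, *Ms4a4a*). Among all 32851 windows of this length, 28.3% hold GAGGAA, 19.5% hold TGCTGA and 5.36% hold both. These matches describe the letters of the windows and are not binding sites shown by the data.

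The 10 genes were first checked in GFP- cells, which should contain macrophages. In these cells 9 of the 10 genes had over 3 reads in every sample. The exception was *Lyve1*, a hyaluronan receptor, at 3.27, 18.1 and 7.96 in GFP- replicates 1, 2 and 3. *Lyve1* was thus too low in these cells to serve there as a border macrophage gene, and its highest levels were in single samples of sorted astrocytes. *Lyz2* (lysozyme 2) was the most abundant member, at 22401, 13273 and 10818. Levels per kb of exon put *Lyz2* at 11776 in GFP- cells, followed by *Pf4* (314), *Ms4a4a* (191.9), *Cbr2* (151.1), *Mrc1* (87.6), *Ms4a7* (59.9), *Cd163* (23.6), *F13a1* (20.9), *Clec10a* (18.6) and *Lyve1* (3.35).

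**Figure D1:**
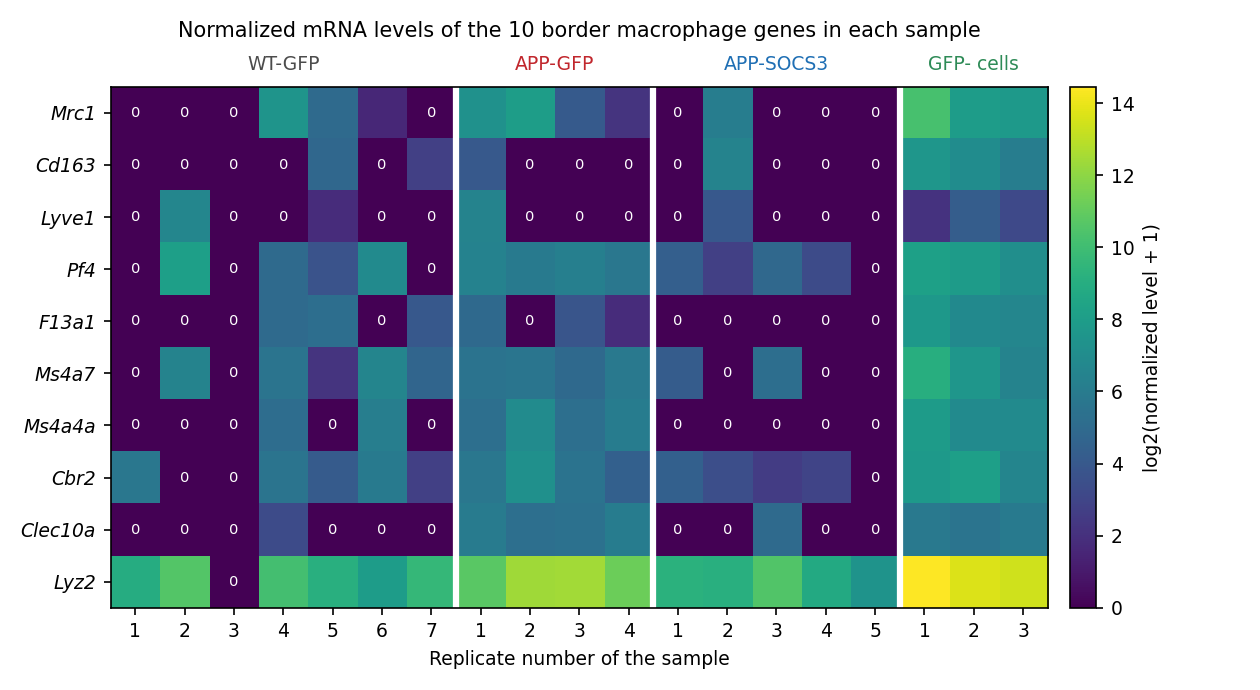
Normalized mRNA levels of the 10 genes (rows) in each of the 19 samples (columns, by group and replicate number), as log2(level + 1), with 0 printed where no read was counted. *Ms4a4a* and *F13a1* were at 0 in all 5 APP-SOCS3 samples, WT-GFP replicate 3 had no read of any of the 10 genes, and GFP- cells had all of them.

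Mean levels of 9 of the 10 genes were higher in GFP- cells than in WT-GFP astrocytes, and *Lyve1* had means of 9.79 and 14.5. This order of *Lyve1* rested on WT-GFP replicate 2 (98.8). Without it, the ratio of the WT-GFP mean to the GFP- mean fell from 1.48 to 0.0442. The ratio of means was 42.7 for *Clec10a*, 27.1 for *Cd163*, 22.8 for *Lyz2*, 18.2 for *Mrc1*, 12 for *F13a1*, 10.5 for *Ms4a4a*, 7.76 for *Cbr2*, 7.32 for *Ms4a7* and 3.52 for *Pf4*. Single samples moved several of these ratios. Without GFP- replicate 1 the ratio was 7.69 for *Mrc1* and 3.78 for *Ms4a7*. Without the WT-GFP sample with the highest level it was 101 for *Mrc1*, 137 for *Cd163*, 27.9 for *Ms4a4a*, 18.3 for *F13a1* and 8.29 for *Pf4*, and at least 17.7 at the floor of 3 reads for *Clec10a*, which was then at 0 in WT-GFP. All 9 passed the thresholds used for a call (limma on log2(level + 1), unadjusted *p* of at most 0.05 and at least 1.5-fold), where 33.5% of all genes tested were called higher in GFP- cells. For 7 genes the groups did not overlap, as for 27.2% of all genes tested, and *Pf4*, *Ms4a7* and *Lyve1* overlapped. Nothing is read from these counts, as the direction was known when the genes were chosen. On whole reads, 3 of the genes were called by edgeR and 5 by DESeq2. Of all 26709 genes tested, edgeR called 5265 and DESeq2 5784 higher in GFP- cells. Of the markers of other cells, 10 of 10 microglial, 10 of 10 endothelial and 9 of 9 mural and fibroblast genes were called higher in GFP- cells, and 10 of 10 astrocyte genes lower. The 6 lymphocyte genes were called higher as well. They reached the minimum mean level of 10 in GFP- cells only, so these 6 calls are no support for a difference.

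Of the lectin and scavenger receptors, *Mrc1* and *Clec10a* alone were found in every APP-GFP sample. *Mrc1* (the mannose receptor CD206) was at 154.8, 267.5, 15.8 and 3.49 in APP-GFP replicates 1 to 4. In APP-SOCS3 astrocytes it was at 0 in 4 samples and at 68.8 in replicate 2. In WT-GFP astrocytes *Mrc1* ranged from 0 to 181 with a median of 0. It was thus present in every APP-GFP sample, but the 3 groups of astrocytes overlapped. GFP- cells had 1204, 254.1 and 216.5. *Cd163*, the scavenger receptor for haemoglobin bound to haptoglobin, was above 0 in 4 of the 16 astrocyte samples. Its levels were 15.4 in APP-GFP replicate 1, 87.4 in APP-SOCS3 replicate 2, and 27.7 and 5.64 in WT-GFP replicates 5 and 7. *Lyve1* was likewise confined to a few samples, at 87.8 in APP-GFP replicate 1, 14.9 in APP-SOCS3 replicate 2, and 98.8 and 2.60 in WT-GFP replicates 2 and 5. Neither gene separated the groups.

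*Clec10a*, a C-type lectin of macrophages and dendritic cells, was at 62.5, 37.9, 40.6 and 66.3 in APP-GFP replicates 1 to 4. Levels in GFP- cells were 55.5, 45.4 and 61.0, within the range of the APP-GFP samples, whereas *Lyz2* was lower in each APP-GFP sample than in each GFP- sample. Of the 7 WT-GFP samples, 6 were at 0 and replicate 4 was at 8.85. Of the 5 APP-SOCS3 samples, 4 were at 0 and replicate 3 was at 31.0. *Clec10a* in APP-GFP astrocytes thus lay above both other groups of astrocytes without overlap. Its mean in APP-GFP was 51.8 ± 14.6 (SD, n = 4), against 6.20 ± 13.9 (SD, n = 5) with SOCS3 and 1.26 ± 3.35 (SD, n = 7) in WT-GFP.

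*Ms4a7* and *Ms4a4a* encode membrane proteins of the MS4A family. *Ms4a4a* was at 38.0, 124.3, 37.6 and 65.4 in APP-GFP replicates 1 to 4 and at 0 in all 5 APP-SOCS3 samples. In WT-GFP astrocytes it was at 0 in 5 samples, and replicates 4 and 6 had 34.4 and 72.6. The APP-GFP range was thus reached in WT-GFP but in no APP-SOCS3 sample. Counted at a floor of 3 reads per sample, APP-SOCS3 astrocytes were at least 22.6-fold lower than APP-GFP astrocytes and at least 5.21-fold lower than WT-GFP astrocytes, or at least 1.95-fold without WT-GFP replicate 6. *Ms4a7* was at 45.3, 47.4, 29.7 and 55.8 in APP-GFP astrocytes. In APP-SOCS3 replicates 1 and 3 it was at 17.7 and 36.0, and the other 3 samples were at 0. WT-GFP samples ranged from 0 to 93.3, with a median of 24.8, and overlapped with both.

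Among the secreted proteins, *Lyz2* was the member with most reads in the sorted astrocytes. It was at 1756, 5303, 5648 and 2318 in APP-GFP replicates 1 to 4. APP-SOCS3 replicates 1 to 5 had 608.3, 546.0, 1460, 436.2 and 168.7. All APP-GFP samples were above all APP-SOCS3 samples and above all WT-GFP samples, which ranged from 0 to 1531 with a median of 561.4. *Pf4*, the chemokine platelet factor 4, was at 83.3, 58.8, 75.2 and 52.3 in APP-GFP replicates. APP-SOCS3 replicates had 19.9, 5.58, 28.0, 8.82 and 0, all below the APP-GFP samples. WT-GFP samples ranged from 0 to 286.2, with a median of 12.1, and their mean (64.3) was close to the APP-GFP mean (67.4). *F13a1*, the A subunit of coagulation factor XIII, was low in all sorted astrocytes. It was at 29.9, 0, 12.9 and 2.62 in APP-GFP astrocytes and at 0 in all 5 APP-SOCS3 samples, a ratio of at least 3.86 at the floor of 3 reads and of at least 1.76 without APP-GFP replicate 1. WT-GFP samples ranged from 0 to 36.3 with a median of 0.

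*Cbr2* encodes carbonyl reductase 2, an enzyme of tissue macrophages. It was at 52.5, 154.6, 44.5 and 20.9 in APP-GFP replicates and at 21.0, 10.2, 5.00, 6.86 and 0 in APP-SOCS3 replicates. The highest APP-SOCS3 sample thus just reached the lowest APP-GFP sample, and the mean was 7.91-fold lower in APP-SOCS3, or 4.56-fold without APP-GFP replicate 2 and 12.3-fold without APP-SOCS3 replicate 1. WT-GFP astrocytes ranged from 0 to 60.1 with a median of 16.4.

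**Figure D2:**
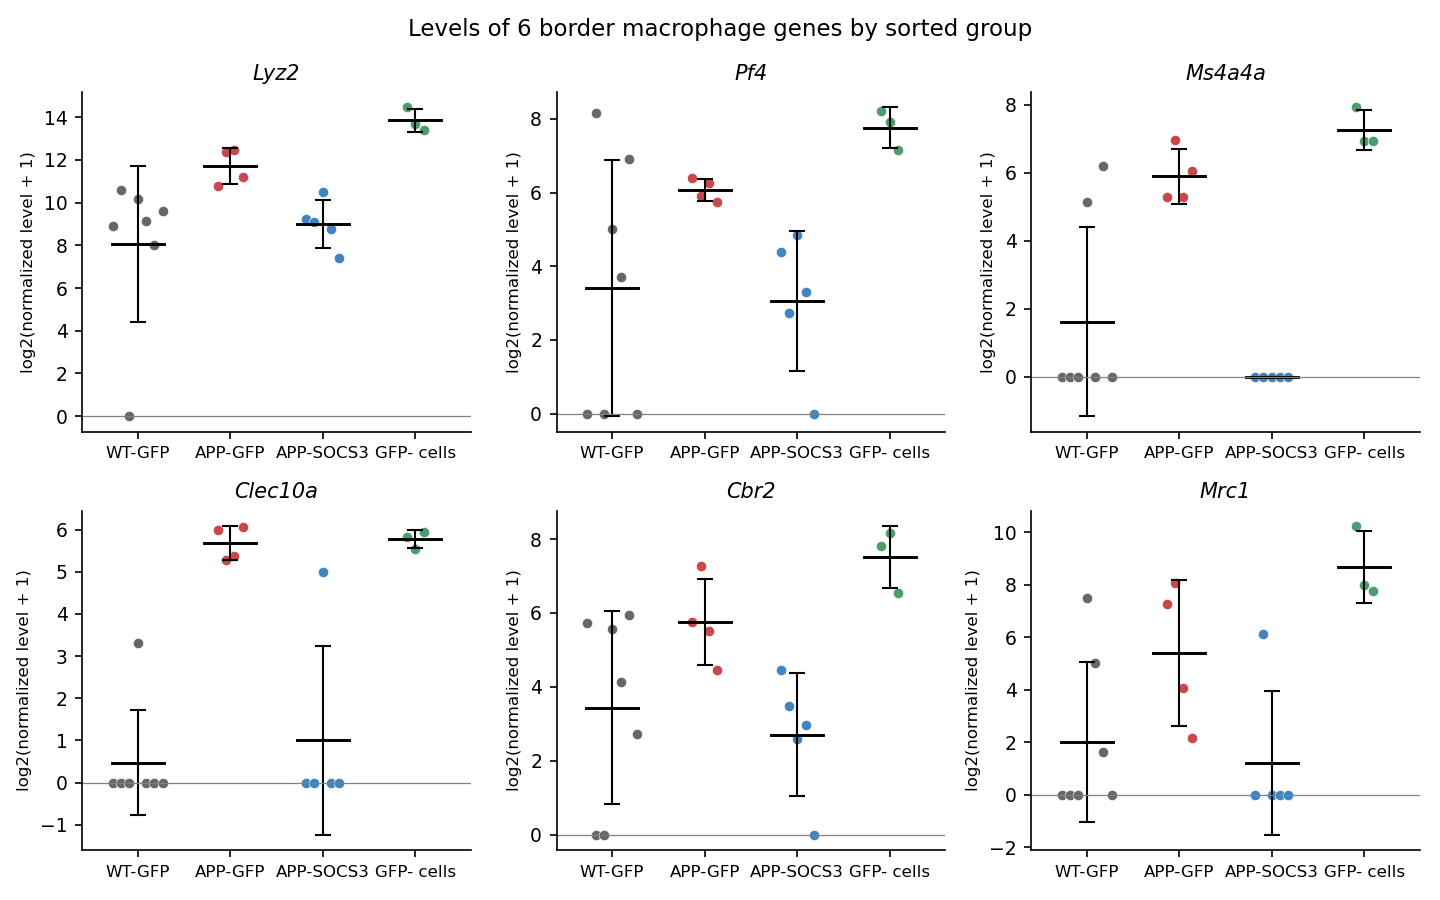
Levels of 6 of the genes by group, as log2(level + 1), with 1 point per sample, the mean (thick line) and the SD of the log2 values (bars). APP-GFP astrocytes lie above APP-SOCS3 astrocytes without overlap for *Lyz2*, *Pf4*, *Ms4a4a* and *Clec10a*, and *Clec10a* alone is as high there as in GFP- cells.

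The number of members with over 3 reads was 7 to 10 in APP-GFP, 0 to 8 in WT-GFP and 1 to 6 in APP-SOCS3 samples. All 10 were found in APP-GFP replicate 1. None was found in WT-GFP replicate 3, where even *Lyz2* had no read, while the summed level of 10 microglial genes in that sample was 19.9% of the mean of GFP- cells, the second highest of the 7 WT-GFP samples. In APP-SOCS3 replicate 5 only *Lyz2* was found. *Mrc1*, *Cd163* and *Lyve1* of the APP-SOCS3 group were all found in replicate 2 alone.

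To describe these genes in the disease model, APP-GFP astrocytes were compared with WT-GFP astrocytes. *Lyz2* mean levels were 3756 ± 2003 (SD, n = 4) and 679.1 ± 522.8 (SD, n = 7), a ratio of 5.53. The difference in mean log2(level + 1) was 3.64 (standard error 1.59, 95% confidence interval 0.20 to 7.08, unadjusted *p* = 0.0395 by limma), and the groups did not overlap (2-sided exact permutation *p* = 0.00606, the smallest this design allows). This call was lost without APP-GFP replicate 2, 3 or 4 or WT-GFP replicate 6 (unadjusted *p* by limma 0.0559 to 0.0869), and without WT-GFP replicate 3, the sample at 0, the difference was 2.30. It was also lost with a pseudocount of 0.1 (unadjusted *p* by limma = 0.079). *Ms4a4a* and *Clec10a* had differences of 4.27 and 5.21, given with no test. Of the 7 other members tested, 1 was called higher in APP-GFP, against 1.66% of all 22969 genes tested. *Lyz2* was also the only one of these 7 whose groups did not overlap, as for 0.231% of all genes tested. With *Ms4a4a* and *Clec10a*, whose levels were known, 3 of 9 members passed the thresholds and 2 did not overlap, from which nothing is read. No member had a Benjamini-Hochberg adjusted *p* under 0.05 over all genes tested by limma, and 1 gene of the whole table had.

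The other 6 members tested had positive differences in mean log2(level + 1) that did not pass the test. *Mrc1* differed by 3.38 (95% confidence interval −0.38 to 7.13), *Pf4* by 2.67 (−0.93 to 6.27), *Cbr2* by 2.31 (−0.71 to 5.32) and *Ms4a7* by 1.84 (−1.30 to 4.98). *F13a1* (0.62) and *Lyve1* (0.41) were nearer to 0. *Cd163*, with means of 3.85 in APP-GFP and 4.76 in WT-GFP, was below the minimum mean level of 10. These differences are not the ratio of mean levels, which was 1.05 for *Pf4* and 0.962 for *F13a1*, since samples at 0 weigh more on the log2 scale. The ratio for *Mrc1* was 3.61, or 19.9 without WT-GFP replicate 4 and 1.9 without APP-GFP replicate 2. *Mrc1* passed the test without APP-GFP replicate 4 (unadjusted *p* by limma = 0.0339), WT-GFP replicate 4 (0.0146) or WT-GFP replicate 5 (0.0495), and *Pf4* without WT-GFP replicate 2 (0.0405), its highest sample. The median difference over the 9 members, *Ms4a4a* and *Clec10a* included, was 2.67, beside 0.09 over all genes tested.

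The effect of the SOCS3 vector in APP mice was described by comparing APP-SOCS3 with APP-GFP astrocytes. *Lyz2* fell, with mean levels of 643.9 ± 486.3 (SD, n = 5) against 3756 ± 2003 (SD, n = 4), a 5.83-fold lower mean. Its log2 difference was −2.69 (standard error 0.554, 95% confidence interval −3.91 to −1.47, unadjusted *p* = 0.000497, adjusted *p* = 0.379 by limma). *Pf4* fell 5.41-fold in mean level (log2 difference −3.02, standard error 1.03, unadjusted *p* = 0.0136 by limma). For both genes the groups did not overlap (exact permutation *p* = 0.0159, the smallest this design allows), and both calls were lost in a fit of all 19 samples (unadjusted *p* by limma = 0.0813 for *Lyz2* and 0.0669 for *Pf4*). *Ms4a7* fell 4.15-fold in mean level, or 10.1-fold without APP-SOCS3 replicate 3 (log2 difference −3.59, standard error 1.31, unadjusted *p* = 0.0191 by limma, exact permutation *p* = 0.0317). On whole reads *Ms4a7* did not pass the test (unadjusted *p* = 0.233 by edgeR and 0.221 by DESeq2).

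*Mrc1* also passed the thresholds, with a log2 difference of −4.17 (standard error 1.67, unadjusted *p* = 0.0293 by limma, exact permutation *p* = 0.0476). Its mean was 8.02-fold lower, or 4.22-fold without APP-GFP replicate 2 and at least 37.1-fold without APP-SOCS3 replicate 2. *Mrc1* was no longer called by edgeR or DESeq2, nor by limma without APP-SOCS3 replicate 1, 3, 4 or 5 or APP-GFP replicate 1 or 2 (unadjusted *p* by limma 0.0588 to 0.0843). *Cbr2* (log2 difference −3.05, standard error 1.06) and *F13a1* (−2.65, standard error 1.12) reached the minimum mean level of 10 in APP-GFP only, so they entered the fit through the higher group, and are given with no test. *Ms4a4a* and *Clec10a*, which reached it in APP-GFP only as well, had log2 differences of −5.89 and −4.68, also with no test. *Cd163* (0.28) and *Lyve1* (−0.82) did not pass the test, with 95% confidence intervals of −3.21 to 3.78 and −4.28 to 2.63.

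In all, 8 of the 10 members passed the thresholds as lower in APP-SOCS3 astrocytes and none as higher, against 3.37% of all 22844 genes tested that were called lower. Of these 8, *Mrc1*, *Pf4*, *Ms4a7* and *Lyz2* reached the minimum level in both groups, and the 4 others in APP-GFP only, so neither the count nor the median below is support for a difference. Leaving out *Ms4a4a* and *Clec10a*, the groups did not overlap for 2 of 8 members, *Pf4* and *Lyz2*, as for 1.09% of all genes tested. The median difference was −3.03 over the 10 members and 0.08 over all genes tested. Leaving out any sample gave 6 to 8 members called, all lower. No member had an adjusted *p* under 0.05 by limma and 1 gene of the whole table had. On whole reads, 5 members passed as lower by edgeR and 4 by DESeq2, *Ms4a4a* among them in each. Of all 22844 genes tested, 925 passed as lower by edgeR and 947 by DESeq2. Both comparisons of APP-GFP astrocytes share the 4 APP-GFP samples, so that they are not independent of each other.

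**Figure D3:**
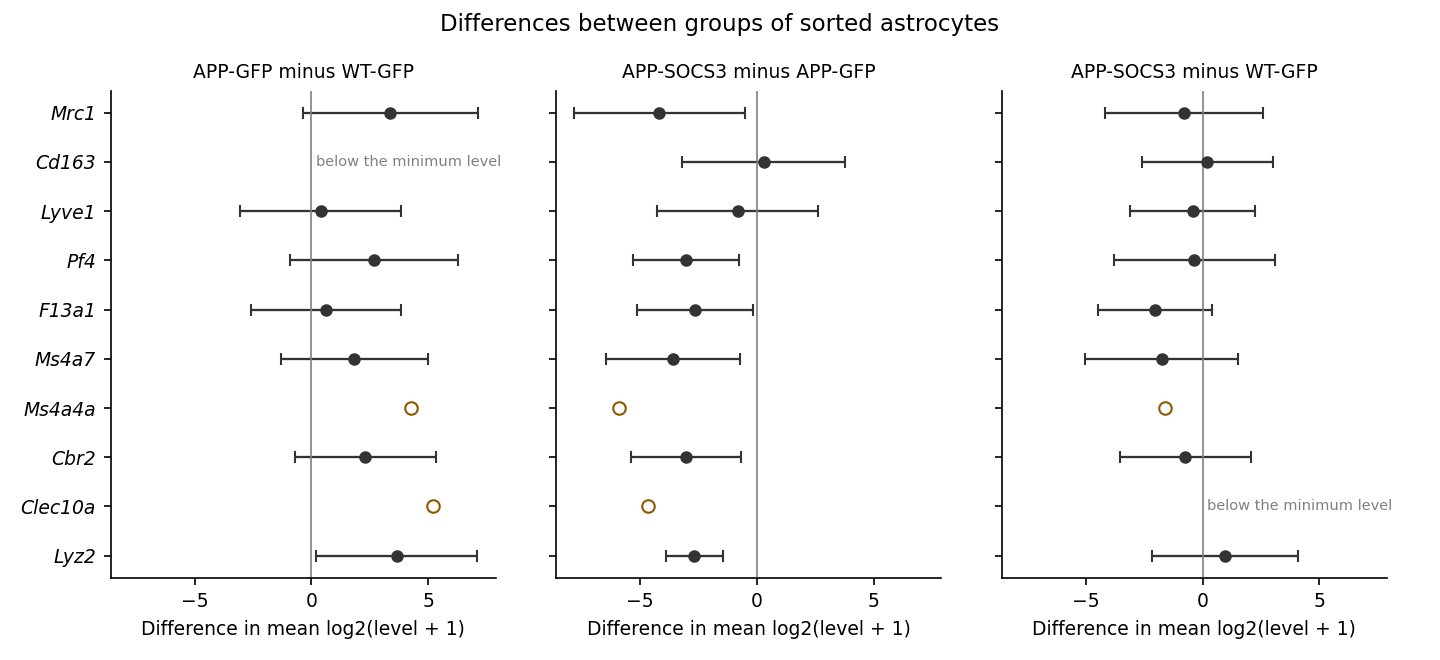
Differences in mean log2(level + 1) between groups of sorted astrocytes for each gene (filled points, with 95% confidence intervals of limma), with *Ms4a4a* and *Clec10a* as open points without interval. In the comparison of APP-SOCS3 with APP-GFP, the intervals of *Lyz2*, *Pf4*, *Ms4a7* and *Mrc1* lie below 0, as do those of *Cbr2* and *F13a1*, which reached the minimum level in APP-GFP only.

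APP-SOCS3 and WT-GFP astrocytes were compared last. *Lyz2* mean levels were 643.9 and 679.1, with a log2 difference of 0.95 (95% confidence interval −2.18 to 4.08). Of the 9 members tested none was called, against 3.19% of all 22958 genes called higher and 2.02% called lower in APP-SOCS3. At an unadjusted *p* under 0.05, limma likewise gave 0 members, while on whole reads *F13a1* passed as lower by edgeR and DESeq2, as did *Ms4a4a*, whose level was known. Both genes had no read in APP-SOCS3 and reached the minimum level in WT-GFP only. Of all 22958 genes tested, 762 passed as lower by edgeR and 824 by DESeq2. The intervals were wide, as for *Pf4* (−3.79 to 3.08), *Mrc1* (−4.17 to 2.58) and *Cbr2* (−3.53 to 2.06), so that differences of several-fold in either direction remained possible. Every member tested overlapped between these groups.

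Other genes of border macrophages were set beside the members. Of a list of 21 genes, 16 could be tested between APP-SOCS3 and APP-GFP astrocytes, and 6 were called lower (*Clec4n*, *Stab1*, *Maf*, *Cd209f*, *Lilra5*, *Cd209g*), against 3.37% of all genes tested. Only *Stab1* of these 6 reached the minimum mean level in both groups, and the other 5 in APP-GFP only. *Stab1*, a scavenger receptor, was at 48.4 ± 30.3 (SD, n = 5) in APP-SOCS3 against 402.5 ± 200.4 (SD, n = 4) in APP-GFP, and differed by −3.63 on the log2 scale (standard error 1.01). The C-type lectin *Clec4n* had no read in APP-SOCS3 astrocytes and 39.7 ± 33.4 (SD, n = 4) in APP-GFP. Between APP-GFP and WT-GFP astrocytes, *Folr2*, a folate receptor of resident macrophages, and the lectin *Cd209f* were called higher (differences of 3.52 and 3.30), 2 of the 16 tested. Of all genes tested, 1.66% were called higher there. *Siglec1*, a sialic acid receptor of macrophages, had no read in WT-GFP and APP-GFP astrocytes and 38.9 to 104.5 in GFP- cells. In APP-SOCS3 astrocytes it was at 19.5 in replicate 2 and at 0 in the other 4 samples. *Clec4n* was the only gene called of the 14 tested when APP-SOCS3 was set against WT-GFP, and it was lower, against 2.02% of all genes tested. It reached the minimum mean level in WT-GFP only, with 77.2 in replicate 2 and 0 to 14.7 in the other samples. This call is thus no support for a difference.

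Genes that work with the members were mixed. Of 7 MHC class II genes, which some border macrophages carry, 4 were called lower in APP-SOCS3 than in APP-GFP astrocytes (*H2-DMb1*, *H2-Ab1*, *Cd74*, *H2-Eb1*), 1 was called lower than in WT-GFP (*H2-DMb1*), and none was called between APP-GFP and WT-GFP. Of all genes tested, 3.37% were called lower in APP-SOCS3 than in APP-GFP and 2.02% lower than in WT-GFP. *H2-DMb1* was below the minimum mean level in APP-SOCS3 and entered both fits through the higher group, so its calls are no support for a difference. Of 5 genes that handle the haemoglobin and iron taken up through CD163, only the iron exporter *Slc40a1* was called between APP-SOCS3 and APP-GFP (−1.45, standard error 0.497). It was also lower in APP-SOCS3 than in WT-GFP, and *Hpx*, for the haem carrier hemopexin, was lower in APP-GFP than in WT-GFP (−3.04, standard error 1.22). Of all 22969 genes tested, 131 were called lower in APP-GFP than in WT-GFP. *Hpx* was at 214.5, 0, 58.4 and 265.9 in APP-GFP replicates 1 to 4 and at 221.3 to 905.2 in WT-GFP samples. Replicate 2, at 0, was the APP-GFP sample with the fewest genes above 0. Of 6 genes that make, bind or degrade hyaluronan, the ligand of LYVE1, 3 were tested among astrocytes. The receptor *Cd44* was called higher in APP-SOCS3 than in WT-GFP (3.07, standard error 1.34), against 3.19% of all genes tested. It was at 73.8 and 11.3 in WT-GFP replicates 4 and 7 and at 0 in the other WT-GFP samples. None was called in the other comparisons of astrocytes.

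The receptor CSF1R and its ligands CSF1 and IL-34 maintain brain macrophages, and PU.1 is their lineage factor. Of 8 such genes and myeloid transcription factors, *Csf1r*, *Cebpb*, *Il34* and *Spi1* were called lower in APP-SOCS3 than in APP-GFP astrocytes. Of all genes tested, 3.37% were called lower. *Csf1r* was at 1201 ± 406.5 (SD, n = 5) and 3875 ± 2330 (SD, n = 4), and *Spi1* at 111 ± 82.7 (SD, n = 5) and 494.5 ± 450.9 (SD, n = 4). *Maf* was at 4.88 ± 8.67 (SD, n = 5) and 96.4 ± 96.3 (SD, n = 4). None of the 8 was called between APP-GFP and WT-GFP. *Cebpb*, *Csf1r*, *Irf8* and *Spi1* were called lower in APP-SOCS3 than in WT-GFP, against 2.02% of all genes tested.

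Markers of other cells moved with the members in the same direction between APP-SOCS3 and APP-GFP astrocytes. Lower levels were called for 9 of 10 microglial genes (median −1.64), 11 of 12 genes of brain macrophages in general (−2.14), 10 of 10 endothelial genes (−2.59), 4 of 9 genes of mural cells and fibroblasts (−2.37), 2 of 6 neuronal genes (−1.22) and 1 of 6 genes of the oligodendrocyte lineage (−0.97). Of 10 astrocyte genes 1, *Gfap*, was called lower, with a median of 0.03. Of all genes tested, 3.37% were called lower. *Lum* of the fibroblast genes, *Rbfox3* of the neuronal genes and *Mag*, the only oligodendrocyte lineage call, reached the minimum mean level in APP-GFP only. These 3 calls are thus no support for a difference. The part of these other cells in the result was not tested. No gene of these lists had an adjusted *p* under 0.05 by limma in this comparison. Between APP-GFP and WT-GFP astrocytes, none of the 10 microglial, 10 endothelial, 9 mural and fibroblast, 6 neuronal, 6 oligodendrocyte lineage and 10 astrocyte genes was called, and of the 12 general macrophage genes *Tyrobp* and *Cd68* were higher. Between APP-SOCS3 and WT-GFP, where no member was called, 7 of 10 microglial, 7 of 12 general macrophage, 9 of 10 endothelial, 4 of 9 mural and fibroblast, 1 of 5 oligodendrocyte lineage and 1 of 10 astrocyte genes were lower, and none of the 6 neuronal genes. Of all genes tested, 2.02% were called lower there. The oligodendrocyte lineage call was again *Mag*, which reached the minimum mean level in WT-GFP only.

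Summed over the list, microglial genes were at 9.78% to 40.9% of their mean in GFP- cells in APP-GFP, 7.49% to 24.4% in WT-GFP and 6.12% to 9.86% in APP-SOCS3 samples. Endothelial genes were at 3.49% to 19.7%, 2.39% to 23.2% and 0.725% to 4.04%. The 9 members without *Lyz2* were at 14.7% to 39.6%, 0 to 27.1% and 0 to 10.7%, and *Lyz2* at 11.3% to 36.4%, 0 to 9.88% and 1.09% to 9.42%. Genes of brain macrophages in general were at 11.2% to 84.2%, 7.09% to 36.2% and at most 11.4%. Oligodendrocyte lineage genes reached 99.8% in the highest APP-GFP sample. GFP- replicate 1 weighs on the mean of the 9 members in GFP- cells, and without it they were at 22.4% to 60.4% in APP-GFP, 0 to 41.3% in WT-GFP and 0 to 16.4% in APP-SOCS3. In APP-GFP replicate 1, where microglial and endothelial genes were low (9.78% and 4.16%), the 9 members were at 32.6%. Astrocyte genes were at 1370% to 2520% in all 16 samples.

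The summed level of the 10 members was next expressed per summed level of the 10 microglial genes, as a description. It was 22.7%, 15.6%, 13.8% and 18.4% in APP-GFP replicates 1 to 4, and 0 to 10.2% with a median of 6.84% in the 7 WT-GFP samples. APP-SOCS3 replicates 1 to 5 had 7.05%, 7.11%, 16.1%, 5.96% and 2.63%. All APP-GFP samples were above all WT-GFP samples, and APP-SOCS3 replicate 3 was above APP-GFP replicates 2 and 3. This ratio mostly follows *Lyz2*. Without *Lyz2* the range was 0.599% to 5.57% in APP-GFP, with a median of 0.669% in WT-GFP and of 0.618% in APP-SOCS3 samples, and the 3 groups overlapped.

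**Figure D4:**
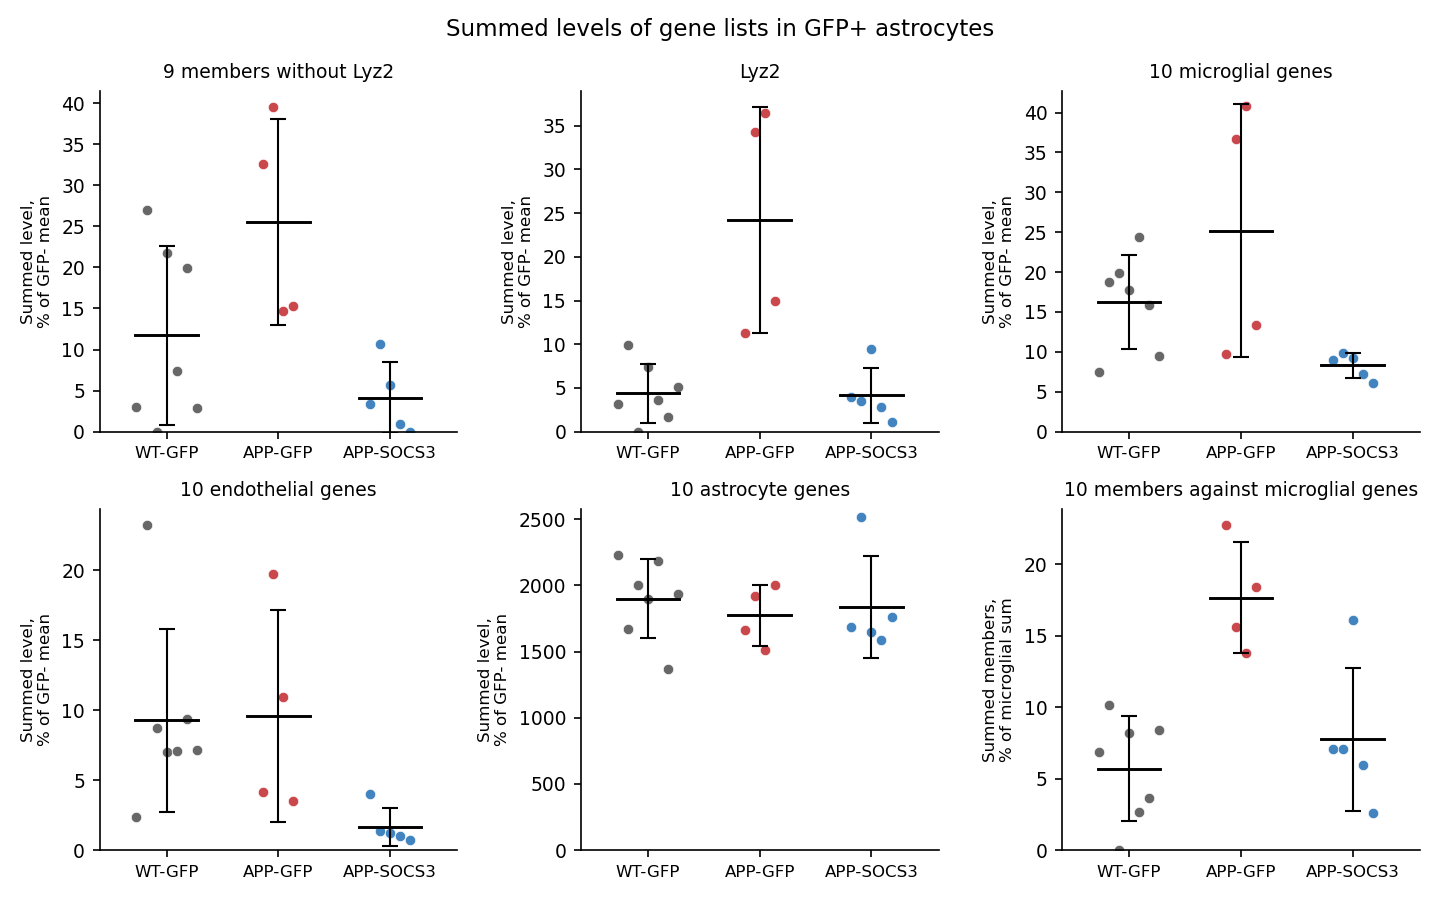
Summed levels of the members and of marker genes of other cells in GFP+ astrocytes, in percent of the GFP- cell mean (first 5 panels), and the summed members as a percentage of the summed microglial genes (last panel), with 1 point per sample, means (lines) and SD (bars, cut at 0). APP-SOCS3 samples lie low beside APP-GFP samples for the members, microglia and endothelium and not for astrocyte genes. For *Lyz2* and the summed 9 other members they lie within the range of the WT-GFP samples.

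Most markers of monocytes, neutrophils, dendritic cells and lymphocytes were at or near 0 in the sorted astrocytes. Of 11 genes of monocytes, neutrophils and dendritic cells, 7 had at most 3 reads in every WT-GFP sample, 5 in every APP-GFP sample and 7 in every APP-SOCS3 sample. Summed, they were at 0.0239% to 6.01%, 0.209% to 5.20% and 0 to 2.44% of the mean of GFP- cells, and *Ccr2*, which marks monocytes, had no read in APP-GFP and APP-SOCS3 astrocytes. None of the 3, 3 and 2 genes tested was called between astrocyte groups. The 6 lymphocyte genes were too low to be tested, at 0 to 5.23% of GFP- cells. Of 5 platelet genes, which bear on *Pf4*, *Ppbp* had at most 3 reads in every WT-GFP and APP-SOCS3 sample. In APP-GFP it was at 11.3 in replicate 4 and at 0 in the other samples. *Itga2b* was at 0 to 127.3 in APP-GFP samples. It was highest in WT-GFP replicate 2 (268), the astrocyte sample with most *Pf4* (286.2). Neither of the 2 genes tested was called between astrocyte groups. The summed platelet genes were at 100.3% to 193.9% of the GFP- mean in sorted astrocytes, through *Gp1bb* (777.9 to 1589), which shares its entry with another gene. Of 5 genes of lymphatic endothelium, which bear on *Lyve1*, *Mmrn1* had at most 3 reads in every sample, and none of the 4 tested was called between astrocyte groups.

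Genes that varied most like the members were sought over the 16 astrocyte samples, by the correlation of their log2 levels with the mean of the scaled log2 levels of the 10 members. Among 14721 genes that are no member, the closest were *Itgb2* (Pearson's r = 0.83, Spearman's rho = 0.87), which encodes the beta chain of leukocyte integrins, *Ogdhl* (0.81 and 0.74) and *Stab1* (0.80 and 0.83). They were followed by *Ifitm10*, *Foxf2*, *Ptpn18*, *Clec5a*, *Slc11a1*, *Rac2* and *Clec4a3*, with r of 0.76 to 0.80. Without WT-GFP replicate 3 and APP-GFP replicate 1, the 2 samples farthest from the median, r was 0.88 for *Itgb2*, 0.75 for *Ogdhl* and 0.84 for *Stab1*, and within the 7 WT-GFP samples it was 0.88, 0.96 and 0.78. These samples share 3 groups and differ in the number of genes found, and the correlations are a description. *Ogdhl* differed from the others in being lower in GFP- cells (273.7 to 504.2) than in APP-GFP astrocytes (1383 to 2010).

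Paralogs were examined because reads of near-identical copies may be split. Of windows of 100 exon bases, 5.37% of *Cbr2* were shared with *Gm11771*, 2.64% of *Clec10a* with *Mgl2* and 1.97% of *Lyz2* with *Lyz1*, and none for the other 7 members. *Lyz1* was at 0.905 to 9.89 in APP-GFP samples, where *Lyz2* was at 1756 to 5648. *Mgl2* was at 0 to 9.05 in APP-GFP and 0 to 97.7 in WT-GFP astrocytes, unlike *Clec10a*. *Ms4a4a* was above 0 in every APP-GFP sample, whereas each of 5 other *Ms4a* genes was at 0 in at least 1 of them: *Ms4a4b* was at 0 to 6.34, *Ms4a4c* at 0 to 0.905, *Ms4a6b* at 0 to 22.8, *Ms4a6c* at 0 to 18.3 and *Ms4a6d* at 0 to 67.0. The use of strand in counting is not stated, so reads of overlapping antisense transcripts, if any, cannot be told apart.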

How the data were processed

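RNAseq was analysed in 19 samples: 7 of WT-GFP astrocytes, 4 of APP-GFP astrocytes, 5 of APP-SOCS3 astrocytes and 3 of GFP- cells from WT-GFP mice. The authors had aligned reads to mm10 with STAR 2.4.0, counted them on FAST DB gene annotations and deposited DESeq2-normalized counts per gene, a signal with 1 scale per sample. The steps of these values returned whole reads for 100% of values (tolerance 0.01), with 19331876 to 32621917 reads per sample. SMARTer cDNA was PCR-amplified, and the use of strand in counting is not given in the sources used here.

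Groups were compared on log2(level + 1) with limma 3.58.1 (trend) in R 4.3.3, among genes with a mean of at least 10 in either group; differences are on this scale, where the pseudocount shrinks changes between low levels and samples at 0 weigh more than in a ratio of means. A call required an unadjusted *p* of at most 0.05 and at least 1.5-fold, with Benjamini-Hochberg values over all genes tested beside it. 2-sided exact permutation tests were run per gene. Each comparison was fitted on its 2 groups, without covariates. Scripts were tested on simulated data. The alternatives were other pseudocounts, minimum levels, scalings and thresholds, a fit of all samples, a replicate block, edgeR 4.0.16 and DESeq2 1.42.0 on whole reads, and leaving out each sample.

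The members and lists were chosen with earlier results of these data known. Genes named were the 10 members, called or abundant genes of the 16 other lists, the 10 genes most alike, and paralogs. Some items of the genotype and of the lists are not reported here. Promoter sequences came from RefSeq (GRCm38.p6).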

Additional observations from a re-analysis of the deposited data

Results flagged for a closer look

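Samples far from the rest of their group were sought in 34 groups of 4 to 7 values (Dixon's test of the gap to the nearest sample), and 9 were found. Chance gives about 1 in 20 where values vary continuously, which does not hold here, as 7 of the 9 were the only sample of their group above 0. In APP-SOCS3 astrocytes, replicate 2 stood apart for *Mrc1* (68.8), *Cd163* (87.4) and *Lyve1* (14.9), with the other 4 samples at 0 for each of these receptors. *Clec10a* stood apart in APP-SOCS3 replicate 3 (31.0) and in WT-GFP replicate 4 (8.85), again with the other samples of the group at 0. In APP-GFP astrocytes, replicate 1 was the only sample with *Cd163* (15.4) or *Lyve1* (87.8). *Lyve1* was at 98.8 in WT-GFP replicate 2, above each GFP- sample. *Lyz2* was at 0 in WT-GFP replicate 3, the sample with the fewest genes above 0 (15575), and at 255.0 or more in the other 6 WT-GFP samples.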

How the results depend on the processing

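In the order of the report, 9 members were called between GFP- cells and WT-GFP astrocytes, 3 with the disease model, 8 with the SOCS3 vector in APP mice and 0 between APP-SOCS3 and WT-GFP. *Ms4a4a* and *Clec10a*, whose levels were known, are in these counts and in those below, and without them 7, 1, 6 and 0 members were called. *Cd163* among the 7 reached the minimum mean level in GFP- cells only, and *Cbr2* and *F13a1* among the 6 in APP-GFP only. Calls of these genes are thus no support for a difference. These 4 counts were the same after rescaling to equal totals or upper quartiles. edgeR gave 3 and DESeq2 5 in the first, 5 and 4 in the third and 2 and 2 in the last comparison. With a minimum mean level of 100, 1 member was called in the second and 1 in the third comparison, with 2 members tested in each, and with Benjamini-Hochberg adjusted *p* under 0.05 none was called in either. Leaving out single samples gave 6 to 9, 2 to 4, 6 to 8 and 0 to 0 members. Correlations of same-numbered deviations lay between −0.0761 and 0.154. Replicate 2 matched its own number best in APP-GFP against WT-GFP (0.106) and in APP-SOCS3 against APP-GFP (0.0886). Low correlations in such small libraries cannot exclude that same-numbered samples belong together. A replicate block gave 8, 2, 6 and 0 members.

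Directions turned only for differences that were not called. *Lyve1* was at −0.77 with edgeR (GFP- cells), at −0.04 with the replicate block (APP-GFP against WT-GFP) and at 2.77 with DESeq2 (APP-SOCS3 against WT-GFP). *F13a1* was at −0.01 with edgeR and −0.06 with DESeq2 (APP-GFP against WT-GFP). Between APP-SOCS3 and WT-GFP, a pseudocount of 0.1 gave −0.04 for *Cd163* and 0.34 for *Pf4*, and *Lyz2* was at −0.03 with edgeR and −0.08 with DESeq2. When single samples were left out, *Lyve1* ranged from −1.21 to 1.31 and *F13a1* from −0.15 to 1.5 (APP-GFP against WT-GFP), *Cd163* from −0.05 to 1.29 (APP-SOCS3 against APP-GFP), and *Pf4* from −0.92 to 0.44, *Lyz2* from −0.39 to 1.37 and *Mrc1* from −2.02 to 0.12 (APP-SOCS3 against WT-GFP). The cause was not tested. The ratio of the members to microglial genes without *Lyz2*, chosen after seeing the data, had means of 1.18% in WT-GFP, 2.47% in APP-GFP, 0.734% in APP-SOCS3 and 1.96% in GFP- cells, against 5.71%, 17.7%, 7.76% and 18.7% with it.

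Ratios of mean levels without single samples, and sums without GFP- replicate 1, were also added after seeing the data. Depth limits the members other than *Lyz2*, which had few reads or none in many astrocyte samples, and the groups are small.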
